A study of Mus musculus with 6 samples.

Results

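The transcripts described here are the 8 neuronal nicotinic acetylcholine receptor subunit genes Chrna3, Chrna4, Chrna5, Chrna6, Chrna7, Chrnb2, Chrnb3 and Chrnb4. They were taken by gene symbol from a count table of 23079 genes, where each had 1 row, and all 8 passed the filter on low counts that 16766 genes passed. RNA was sequenced from midbrain dopaminergic neurons of C57BL/6 mice, and both groups carried the Dat bacTRAP transgene, in which the dopamine transporter gene directs a tagged ribosomal protein. The 3 control libraries came from midbrain injected with adeno-associated virus of serotype 1 carrying a scrambled shRNA and EGFP, and the 3 knockdown libraries from midbrain given the same type of vector with an shRNA against Satb1, which the titles call an siRNA. The growth protocol gives 3 mice aged 4 months for the 6 libraries, and the labels do not tie a library to a mouse. The p-values therefore rest on the spread among libraries alone, which may be technical. The dissected tissue held 2 regions, the ventral tegmental area and the pars compacta of the substantia nigra. Whether tagged ribosomes were then captured is not given in the sources used here.

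Nicotinic receptors are ion channels made of 5 subunits around a cation pore that acetylcholine, or nicotine, opens. The alpha4 and beta2 subunits form the high-affinity nicotine binding sites of the brain. The alpha6 and beta3 subunits are found in few cell types, dopamine neurons among them, where they join alpha4 and beta2 in receptors of the striatal terminals, and alpha5 joins alpha4 and beta2 as an accessory subunit. The alpha3 and beta4 subunits make up the receptor of autonomic ganglia and the medial habenula, and alpha7 forms channels without a beta subunit.

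Total counts were between 147486754 and 170351145 per library, so that 1 count was worth between 0.00557 and 0.00672 CPM (counts-per-million, a library-scaled count), and sampling noise was small even for the rarest subunit. CPM values were scaled with the trimmed mean of M-values (TMM), which sets most genes to no change, and differences were tested with edgeR's quasi-likelihood test with Benjamini-Hochberg adjustment over 16766 genes. Satb1, the target, was at 30.4% of its control level in the knockdown (edgeR adjusted p = 0.00106), and was highest of the knockdown libraries in library 2 (82.9, 166 and 61.2 CPM in libraries 1 to 3). The labelled cell type was matched by its markers: the dopamine transporter gene Slc6a3 was at 4489 CPM and Th at 3507 CPM in controls, against 245 CPM for the astrocyte gene Slc1a2, 162 CPM for the GABA synthesis gene Gad2, 85.7 CPM for the myelin gene Mbp and 18.9 CPM for P2ry12, the highest of the microglial markers. Of 15 dopamine neuron markers 8 were lower and none higher in the knockdown, and of 8 oligodendrocyte markers 6 were higher and none lower. Of all genes tested, 12.6% were lower and 8.48% higher.

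Of the 8 subunit genes, 4 fell in the Satb1 knockdown (Chrna4, Chrna6, Chrnb2 and Chrnb3), 2 rose (Chrna7 and Chrnb4) and 2 did not pass the test (Chrna3 and Chrna5). Among all genes tested, 21.1% were called at an adjusted p under 0.05, 12.6% lower and 8.48% higher. The median log2 fold change of the 8 subunits was -0.32, beside 0.01 over all genes. The subunits that fell were those with the higher counts, and the 2 that rose had the lowest counts of the family. Control and knockdown libraries did not overlap for 6 of the 8 subunits, 4 lower and 2 higher, which was also the case for 38.7% of all genes (20.8% lower and 17.9% higher). In tissue of many cells, fewer cells of a type and less RNA per cell cannot be told apart.

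**Figure D1:**
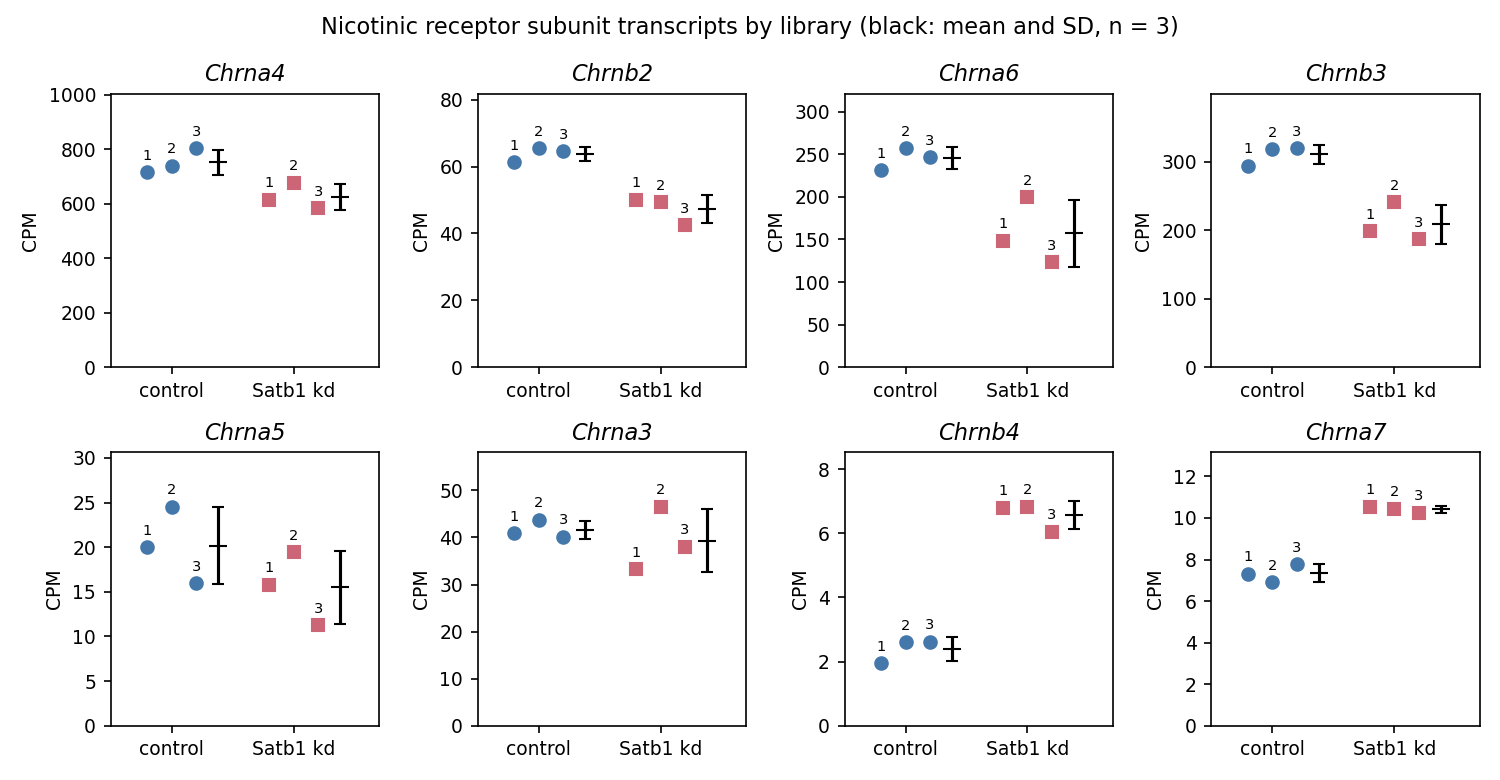
Level of each subunit transcript in CPM (vertical axes, each from 0) in the 3 control libraries (circles) and the 3 Satb1 knockdown libraries (squares), numbered by replicate, with the mean and SD in black. All knockdown libraries lie below all controls for Chrna4, Chrnb2, Chrna6 and Chrnb3 and above them for Chrnb4 and Chrna7, while the groups overlap for Chrna5 and Chrna3.

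Chrna4, which encodes the alpha4 subunit, was the most abundant member. Control libraries 1 to 3 had 716, 739 and 804 CPM, against 614, 677 and 583 CPM in the knockdown libraries. All 3 knockdown libraries were below all 3 controls, by a small margin for knockdown library 2. The group means were 753 ± 45.8 CPM (control) and 625 ± 48.0 CPM (knockdown; SD, n = 3 each). On the log2 scale Chrna4 fell by 0.27 ± 0.09 (SE; edgeR adjusted p = 0.0466), with a 95% interval from -0.46 to -0.08. This call lay near the threshold and was lost without any 1 of control libraries 1, 2 and 3 or knockdown libraries 1 and 3 (adjusted p up to 0.166), and it was also lost with total-count scaling (log2 fold change -0.10, adjusted p = 0.428), under which 2 subunits were lower where 5.8% of all genes were, and 2 higher where 16.5% were.

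Chrnb2, the beta2 subunit gene, was at 61.3, 65.5 and 64.6 CPM in the controls. The knockdown libraries had 50.0, 49.3 and 42.4 CPM, all lower. The log2 fold change was -0.43 ± 0.10 (SE; edgeR adjusted p = 0.0111), from 63.8 ± 2.21 to 47.2 ± 4.21 CPM (SD, n = 3 each). The call was lost without control library 2 (adjusted p = 0.0523) and with total-count scaling (-0.26, adjusted p = 0.0927). In the GENCODE annotation 1365 exon bases of Chrnb2 are shared with Adar, an RNA editing enzyme gene on the opposite strand. In RefSeq the spans of the 2 genes share 8 bases. The annotation used in counting is not given, so the value of Chrnb2 is uncertain if strand was not used.

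The genes of the alpha6 and beta3 subunits, which mark catecholamine neurons, had the most negative fold changes of the family. The controls had 232, 257 and 247 CPM of Chrna6. The knockdown libraries had 149, 199.7 and 123 CPM. Library 3 was lowest and library 2 highest, the order that Satb1 had in the same libraries. Chrna4 and Slc6a3 had this order too, while Chrnb2 and Th did not. A relation of the order to Satb1 was not tested. Chrna6 thus went from a mean of 245 ± 12.9 CPM to one of 157 ± 38.9 CPM (SD, n = 3 each), which is 64.1% of control (log2 fold change -0.64 ± 0.14, SE; edgeR adjusted p = 0.00803).

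Chrnb3 was at 294, 318 and 319 CPM in the controls and at 198, 241 and 186 CPM in the knockdown. Again library 2 was the highest and library 3 the lowest of the knockdown libraries. With means of 310.4 ± 14.3 CPM (control) and 208 ± 28.6 CPM (knockdown; SD, n = 3 each), Chrnb3 fell to 67.1% of control (log2 fold change -0.57 ± 0.11, SE; edgeR adjusted p = 0.00267). Calls for Chrna6 and Chrnb3 were kept without any 1 library and with total-count scaling, where their log2 fold changes were -0.47 and -0.41.

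Chrna6 and Chrnb3 lie next to each other on chromosome 8 of GRCm38, tail to tail with 3.48 kb between them (Chrnb3 from 27368711 to 27399730 on the plus strand, Chrna6 from 27403212 to 27413944 on the minus strand). No exon of either overlaps another annotated gene. Their log2 levels moved together over the 6 libraries (Pearson r = 0.98), and also as deviations from the group means (r = 0.97), values that describe 6 libraries sharing 1 scaling and carry no test. High values were not particular to neighbours. Chrna4, on another chromosome, had r = 0.97 with Chrnb3 and 0.95 with Chrna6 (0.89 and 0.82 as deviations). The ratio of Chrnb3 to Chrna6 CPM was 1.27, 1.24 and 1.29 in the controls and 1.33, 1.21 and 1.51 in the knockdown. The knockdown ratios lie on both sides of the control values, and the log2 ratio differed by 0.09 (exact permutation test over libraries, 2-sided p = 0.5). The smallest p that 3 against 3 libraries allow is 0.1, so the test could not show a difference, nor does it show that the ratio was unchanged.

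Chrna5, the accessory alpha5 subunit gene, was at 20.01, 24.5 and 15.9 CPM in the controls. It was at 15.8, 19.4 and 11.2 CPM in the knockdown, so the groups overlapped. The log2 fold change of -0.38 ± 0.20 (SE) did not pass the test (edgeR adjusted p = 0.202), and its 95% interval from -0.81 to 0.05 includes decreases as large as that of Chrna6. Left out 1 at a time, single libraries moved the value by more than 1.5 times, to -0.18 without knockdown library 3, -0.22 without control library 2 and -0.57 without knockdown library 2. The spread of the 3 controls relative to their mean was wider for Chrna5 than for any other member.

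Chrna3, the ganglionic alpha3 subunit gene, was at 40.8, 43.8 and 40.2 CPM in the controls and at 33.3, 46.5 and 38.0 CPM in the knockdown. The knockdown libraries lay on both sides of the controls, with library 2 above and library 1 below them all. Its log2 fold change of -0.08 ± 0.13 (SE; edgeR adjusted p = 0.7004) had a 95% interval from -0.36 to 0.19 and took the other sign, 0.08, with total-count scaling. In RefSeq the spans of Chrna5 and Chrna3 share 1304 bases at their 3′ ends, on opposite strands, so part of their reads cannot be separated if strand was not used.

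Chrnb4, the beta4 subunit gene, rose most. It was at 1.95, 2.60 and 2.62 CPM in the controls (317, 401 and 389 counts). It was at 6.80, 6.83 and 6.06 CPM in the knockdown libraries (1221, 1050 and 964 counts). Every knockdown library was more than 2-fold above every control, and knockdown library 2, with the most Satb1 left, was as high as library 1. The mean rose 2.75-fold, from 2.39 ± 0.381 to 6.56 ± 0.440 CPM (SD, n = 3 each; log2 fold change 1.46 ± 0.22, SE; edgeR adjusted p = 0.000829). The call was kept in all 15 alternatives run. The other scalings among them move values upward and could not change the sign of a rise.

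Chrna7, which encodes the alpha7 subunit, was at 7.31, 6.91 and 7.78 CPM in the controls. In the knockdown libraries it was at 10.5, 10.4 and 10.3 CPM, all above the controls. The mean went from 7.33 ± 0.433 to 10.4 ± 0.147 CPM (SD, n = 3 each), with a log2 fold change of 0.51 ± 0.15 (SE; edgeR adjusted p = 0.0303). The call was lost without control library 1 or 2 or knockdown library 1, 2 or 3 (adjusted p up to 0.0995), while the log2 fold change stayed between 0.46 and 0.55. It was kept with total-count scaling, where it was 0.68 and the median of all genes was 0.18.

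Promoter sequence was matched by gene number for 6 of the 8 subunits. Chrna6 and Chrnb3 are not among them. A subunit that rose (Chrna7), a subunit that fell (Chrnb2) and both that did not pass the test (Chrna3 and Chrna5) are shown, because Satb1, the factor that was reduced, is known to bind AT-rich DNA. Each is the 250 bases before a RefSeq transcript start in GRCm38.p6, read 5′ to 3′ along the gene, on the minus strand for Chrna7 (chr7:63212527-63212776), Chrnb2 (chr3:89764633-89764882) and Chrna3 (chr9:55026563-55026812) and on the plus strand for the outer of the 2 starts of Chrna5 (chr9:54980630-54980879). Capitals mark every match, on either strand, to the GC box GGGCGG, the CACCC box CCACCC, the E-boxes CAGCTG and CACGTG and the TATA box TATAAA.
Chrna7: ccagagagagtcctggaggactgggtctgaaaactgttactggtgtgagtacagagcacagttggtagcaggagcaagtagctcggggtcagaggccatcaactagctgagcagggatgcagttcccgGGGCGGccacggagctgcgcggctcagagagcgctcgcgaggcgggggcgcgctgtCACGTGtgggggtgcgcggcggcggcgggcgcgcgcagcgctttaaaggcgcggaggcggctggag
Chrnb2: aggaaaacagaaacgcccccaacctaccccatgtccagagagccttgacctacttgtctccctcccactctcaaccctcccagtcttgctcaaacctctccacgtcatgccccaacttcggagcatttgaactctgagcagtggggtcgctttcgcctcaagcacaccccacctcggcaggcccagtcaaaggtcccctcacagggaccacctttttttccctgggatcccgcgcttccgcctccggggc
Chrna3: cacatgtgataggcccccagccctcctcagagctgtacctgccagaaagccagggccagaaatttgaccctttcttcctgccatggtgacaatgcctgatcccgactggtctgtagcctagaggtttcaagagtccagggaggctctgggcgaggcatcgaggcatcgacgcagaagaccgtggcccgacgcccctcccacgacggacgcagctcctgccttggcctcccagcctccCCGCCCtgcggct
Chrna5: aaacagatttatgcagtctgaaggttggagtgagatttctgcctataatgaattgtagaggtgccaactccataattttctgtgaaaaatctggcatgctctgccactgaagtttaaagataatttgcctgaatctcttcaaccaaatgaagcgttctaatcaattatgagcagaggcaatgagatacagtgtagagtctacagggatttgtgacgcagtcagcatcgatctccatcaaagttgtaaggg

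The windows differed in base composition. Over 32851 windows of the same length the median share of A and T was 47.6%. Of the 7 windows of these 6 subunits, the outer one of Chrna5 lay above it, with 60% A and T and a longest run of 8 such letters. The other 6 lay below it, at 40.4% in Chrnb2, 38.8% in Chrnb4, 36.8% in Chrna3, 34.8% in the inner window of Chrna5, 32.8% in Chrna7 and 25.6% in Chrna4. The longest run of A and T letters was 7 bases in Chrnb2 and 6 in Chrna7 and Chrna3, where the median of all windows was 7.

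Chrna7 held 1 GC box and 1 E-box CACGTG, found in 32.7% and 6.02% of all windows, and Chrna3 held 1 GC box. None of the 5 motifs was found in the Chrnb2 window or the outer Chrna5 window. The windows of Chrnb4 and Chrna4 and the inner one of Chrna5 overlap untranslated regions of coding transcripts in GENCODE and are given by counts only. Each of these also lies within the RefSeq span of its gene, past the outermost start. The outer Chrna5 window runs past the RefSeq start of that gene at 54980827. Likewise the Chrna7 window runs past the GENCODE start of that gene at 63212569, so its last bases lie within the gene there. The Chrnb4 window held 2 CACCC boxes and 1 E-box CAGCTG, found in 28.1% and 13.0% of windows. The Chrna4 window held 3 GC boxes and the inner Chrna5 window 4, numbers reached or passed by 8.47% and 4.09% of windows. A match or its lack describes these letters only and says nothing about binding.

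Levels of different subunits can be compared only per length. Per kb of exon, from the GENCODE annotation of GRCm38, the order in controls was Chrna4 (150 ± 9.13 CPM per kb), Chrna6 (84.4 ± 4.43), Chrnb3 (48.7 ± 2.25), Chrna3 (7.90 ± 0.366), Chrnb2 (7.61 ± 0.264), Chrna5 (6.45 ± 1.37), Chrna7 (1.63 ± 0.0962) and Chrnb4 (0.642 ± 0.102; SD, n = 3 each). Chrna3 and Chrnb2, and Chrnb2 and Chrna5, differed by less than the larger of their SDs, and the other neighbours in that order were separated by more than both. The order of the 8 means was the same in the knockdown, with Chrnb4 at 1.76 ± 0.118 CPM per kb now close to Chrna7 at 2.31 ± 0.0326. Per kb of coding length instead, Chrnb3 (223 ± 10.3 CPM per kb in controls) came before Chrna6 (165 ± 8.69) in both groups, and Chrnb2 before Chrna3 in controls only. The exon length of Chrnb2 is 8.38 kb here, and the length used by the authors in counting is not given in the sources used here.

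**Figure D2:**
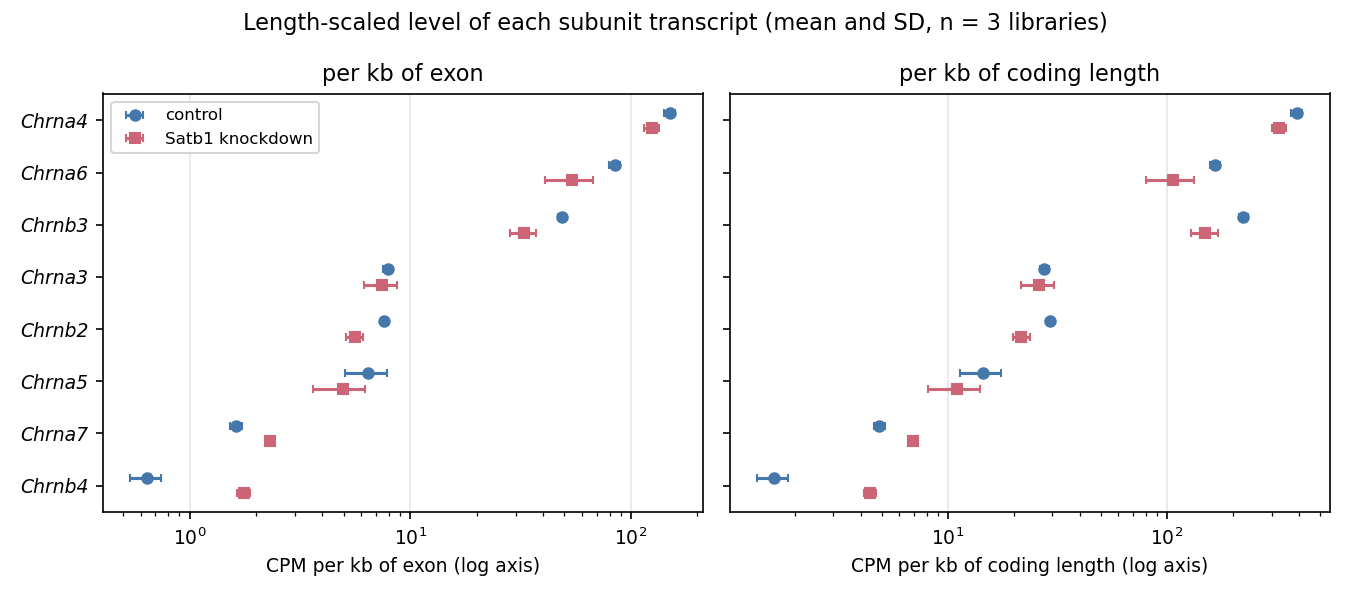
Level of each subunit transcript in CPM per kb of exon (left) and per kb of coding length (right), on log axes, as the mean and SD of 3 control (circles) and 3 knockdown libraries (squares). Chrna4, Chrna6 and Chrnb3 stand above the other subunits in both groups, and Chrnb4 is lowest, at 0.642 CPM per kb of exon in controls and 1.76 in the knockdown.

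The makeup of the subunit pool is described here by the share of single subunits in each library. Of the summed CPM per kb of exon over the 8 subunits, Chrna4 made up 48.8%, 47.2% and 50.3% in the controls, as against 54.1%, 50.6% and 55.9% in the knockdown, so its share was higher although its level was lower. The share of Chrna6 was 27.3%, 28.4% and 26.7% in controls and 22.6%, 25.8% and 20.4% in the knockdown, lower in all 3. That of Chrnb3 was 15.8%, 16.0% and 15.8% in controls and 13.8%, 14.2% and 14.1% in the knockdown. Chrnb4 made up 0.179%, 0.224% and 0.221% in controls and 0.808%, 0.689% and 0.784% in the knockdown, still the smallest share in every library. Shares of 1 sum depend on each other and were not tested.

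The ratio of Chrna6 to Chrna4 CPM needs no length correction when compared between libraries. It was 0.324, 0.348 and 0.307 in the controls and 0.242, 0.295 and 0.212 in the knockdown, lower in all 3 knockdown libraries than in any control. The log2 ratio differed by -0.40 (exact permutation test, 2-sided p = 0.1, the smallest that 3 against 3 libraries allow; adjusted p = 0.4 over the 4 ratios computed). The ratio of Chrnb2 to Chrna4 was 0.0856, 0.0886 and 0.0803 in controls and 0.0814, 0.0728 and 0.0727 in the knockdown, where 1 knockdown library lay among the controls (difference in log2 ratio -0.17, exact permutation p = 0.2, adjusted p = 0.4). The ratio of Chrna5 to Chrna4 overlapped between the groups (-0.12, exact permutation p = 0.6, adjusted p = 0.6), and this difference turned positive, 0.04, without control library 2 or knockdown library 3.

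The decreases are set beside the dopamine neuron markers of the same libraries, whose median log2 fold change was -0.39 over 15 genes. Slc6a3 was at 60.8% of control, the vesicular monoamine transporter gene Slc18a2 at 64.8% and Th at 68.7%, beside 64.1% for Chrna6 and 67.1% for Chrnb3 (edgeR adjusted p between 0.00159 and 0.00803 for these 5 genes). The markers did not all move this way: 7 of the 15 were not called, among them Ddc at 87.3%, the dopamine receptor gene Drd2 at 96.3% and the transcription factor gene Nr4a2 at 119% of control. When libraries were scaled to the summed counts of 15 dopamine neuron markers, the log2 fold changes of Chrna6 and Chrnb3 were -0.08 and -0.01 and were no longer called (adjusted p = 0.661 and 0.971). On that scale 4 subunits were higher, Chrnb4 (2.04), Chrna7 (1.08), Chrna3 (0.47) and Chrna4 (0.31), where 51.5% of all genes were called higher. None was called lower by edgeR, and none with a negative fold change had an unadjusted p under 0.05, where 0.692% of genes were called lower.

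**Figure D3:**
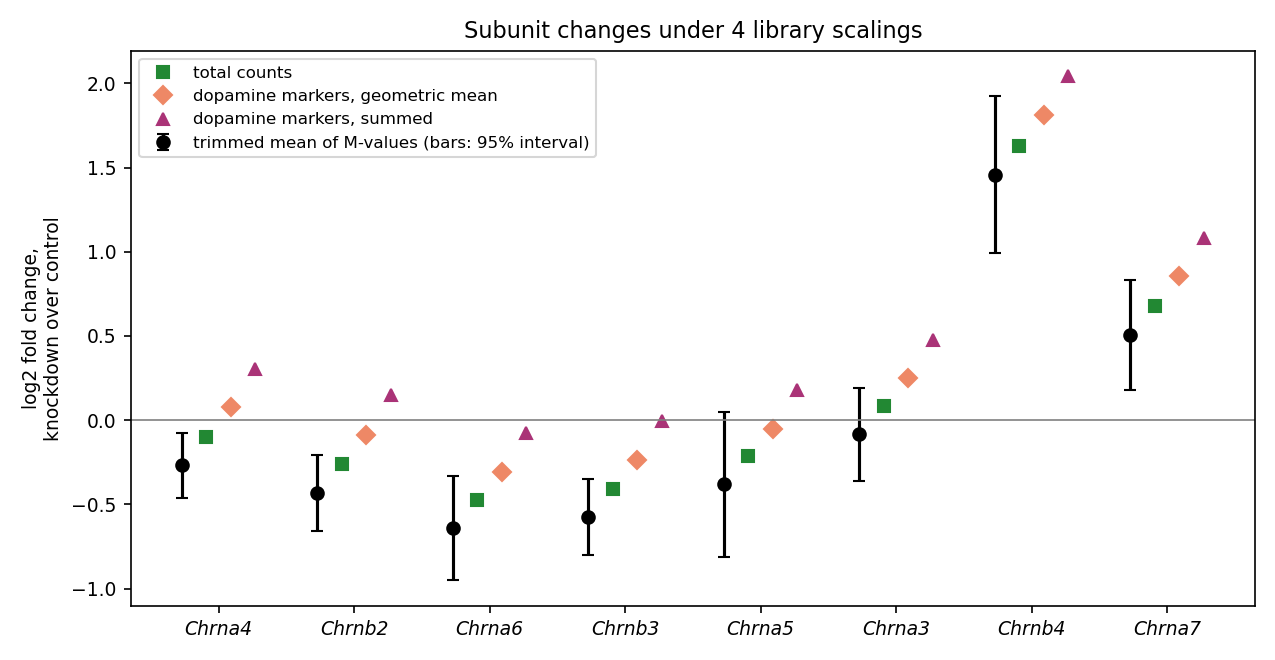
Log2 fold change of each subunit gene, knockdown over control, with libraries scaled by TMM (black, with 95% intervals), total counts, the geometric mean of 15 dopamine neuron markers or their summed counts. Chrnb4 and Chrna7 lie above 0 under all 4 scalings, while Chrna6 moves from -0.64 to -0.08 and Chrna4 from -0.27 to 0.31. Over all genes the median is 0.01 with TMM and 0.18, 0.36 and 0.59 with the others, in the order named. The other scalings thus shift values upward and could not change the sign of a rise seen with TMM.

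The sum is carried by a few abundant markers, Aldh1a1 and Slc6a3 among them. With the geometric mean of the 15 markers in its place, a scaling chosen after the values were seen, Chrnb4 (1.81) and Chrna7 (0.85) were the 2 subunits called higher, and none was called lower by edgeR. Chrna6 was then at -0.31 (adjusted p = 0.0911) and Chrnb3 at -0.23 (adjusted p = 0.115), the 2 lower subunits with an unadjusted p under 0.05, where 29.6% of all genes were called higher and 2.42% lower. The part of the dopamine neuron markers in the decrease of these subunits was not tested.

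Markers of other cells were examined beside the 2 subunits that rose. Chrnb4 and Chrna3 are known to be abundant in the medial habenula. Of 4 habenula marker symbols 3 were in the table. Their summed level lay between 1.10 and 2.68 CPM in controls and between 1.78 and 2.24 CPM in the knockdown, which is near the level of Chrnb4 itself in controls. Neither of the 2 tested was called, with Pou4f1 at 145% and Gpr151 at 86.7% of control and wide intervals (log2 -0.52 to 1.59 and -1.51 to 1.09). Summed oligodendrocyte markers lay between 368 and 429 CPM in controls and between 576 and 650 CPM in the knockdown, with Mbp 1.54-fold higher. Summed astrocyte markers went the other way, from between 239 and 283 CPM to between 200.1 and 218 CPM, a sum set mostly by the glutamate transporter gene Slc1a2, and of 7 markers Aqp4 was higher and Slc1a2 lower (median log2 fold change 0.52). Of 8 microglial markers Csf1r was higher and P2ry12 lower (median 1.06). The sum of all 8 overlapped between the groups (22.6 to 24.6 and 20.9 to 27.4 CPM). It was set mostly by P2ry12, whose mean went from 18.9 to 13.8 CPM. All other microglial markers had positive edgeR log2 fold changes, from 0.33 (Cx3cr1) to 1.80 (Itgam). Among these, Csf1r alone was called. Of 5 endothelial markers, all rare, Cdh5 was higher, and the sums overlapped. These counts stand beside 8.48% higher and 12.6% lower among all genes tested. None of 3 serotonin and 3 glutamate neuron markers was called by edgeR, DESeq2 or limma-voom, and none had an unadjusted edgeR p under 0.05. The part of other cells in the rise of Chrnb4 and Chrna7 was not tested.

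The genes of acetylcholine synthesis and its vesicular transport, Chat and Slc18a3, rose. Chat, the enzyme that makes acetylcholine, was at 2.57, 4.72 and 3.41 CPM in controls and at 7.35, 6.93 and 10.2 CPM in the knockdown (log2 fold change 1.20 ± 0.25, SE; edgeR adjusted p = 0.00516). Slc18a3, the vesicular acetylcholine transporter gene, lies within an intron of Chat, so that some reads could be shared, and rose 2.26-fold, from 1.08 to 2.43 CPM (adjusted p = 0.0348), a call lost without control library 2 or 3 or knockdown library 1 or 3. Of the 7 genes of acetylcholine synthesis, transport and breakdown, these 2 rose and none fell, where 8.48% of all genes rose and 12.6% fell, and the median log2 fold change was 0.06. The choline transporter gene Slc5a7 (0.51, adjusted p = 0.247) and the acetylcholinesterase gene Ache (-0.34, adjusted p = 0.0884) did not pass the test. Prima1, which anchors the esterase in neuronal membranes, was at 40.8 ± 2.42 and 42.5 ± 1.91 CPM (SD, n = 3 each), which gave a log2 difference of 0.06 with a 95% interval from -0.16 to 0.28.

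Of 12 tested genes whose proteins bind or assemble nicotinic receptors, 3 were lower and none higher, by edgeR, DESeq2 and limma-voom alike, where 12.6% of all genes were lower and 8.48% higher by edgeR. The median over the 12 genes was -0.07 on the log2 scale, and 0.10 when libraries were scaled by total counts. Lynx1 and Ly6h, which encode membrane-anchored proteins that dampen nicotinic receptors, and Vsnl1, which encodes a calcium sensor that binds alpha4, were the genes that fell. Lynx1 was at 334, 329.6 and 271 CPM in controls and at 208, 235 and 162 CPM in the knockdown, all lower (log2 fold change -0.63 ± 0.13, SE; edgeR adjusted p = 0.00553). Ly6h fell by 0.57 on the log2 scale, from 39.3 ± 5.34 to 26.4 ± 2.14 CPM (SD, n = 3 each; edgeR adjusted p = 0.00686). Vsnl1 fell by 0.67, from 4503 ± 293 to 2836 ± 267 CPM (SD, n = 3 each; edgeR adjusted p = 0.000442). These 3 calls were kept without any 1 library and with total-count scaling. With libraries scaled to the summed dopamine neuron markers, none of the 3 was called. Lynx1 was then at -0.06, Ly6h at -0.001 and Vsnl1 at -0.10 (edgeR adjusted p = 0.736, 0.996 and 0.417). With the geometric mean of the markers, Vsnl1 alone was called lower (-0.32, edgeR adjusted p = 0.0086).

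The assembly factors did not pass the test. Ric3, a chaperone of nicotinic receptors, was at 136 ± 2.54 and 128 ± 1.63 CPM (SD, n = 3 each), which gave a log2 difference of -0.09 with a 95% interval from -0.28 to 0.09. Tmem35, now called Tmem35a and also known as NACHO, which is needed for alpha7 assembly, had a log2 fold change of 0.07 with an interval from -0.15 to 0.29. The 14-3-3 protein gene Ywhah, whose product binds alpha4, was lower in all knockdown libraries by a small amount (-0.22, adjusted p = 0.0565) and did not pass.

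**Figure D4:**
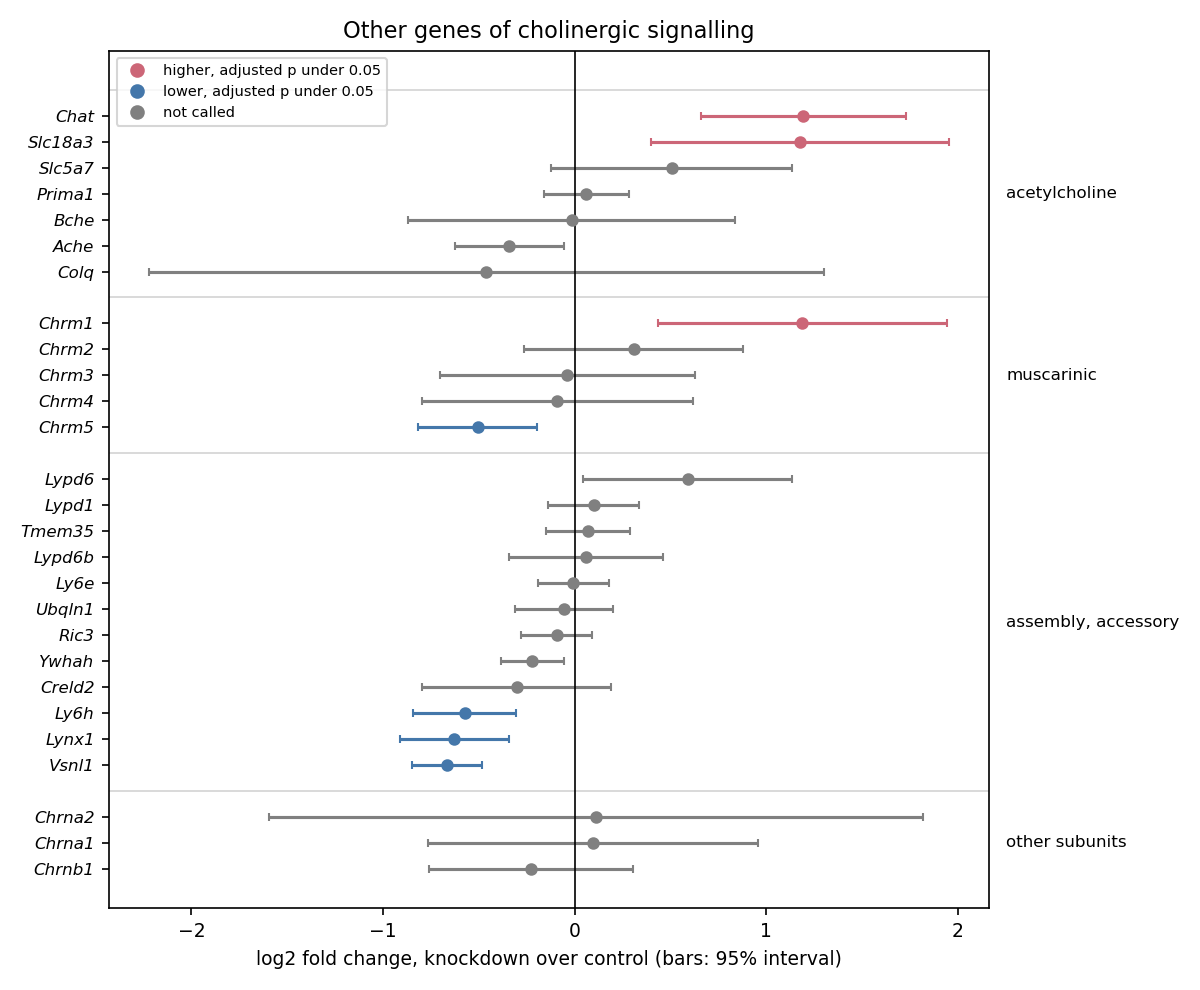
Log2 fold change, knockdown over control, of the tested genes of 4 lists of cholinergic signalling (vertical axis) with 95% intervals, coloured by the edgeR call. Chat, Slc18a3 and Chrm1 are the higher genes and Chrm5, Ly6h, Lynx1 and Vsnl1 the lower ones, and the widest intervals belong to genes under 1 CPM such as Chrna2 and Colq.

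Of the 5 muscarinic receptor genes, the other class of acetylcholine receptor, 1 rose and 1 fell, where 21.1% of all genes were called. Chrm5, a muscarinic receptor gene expressed in dopamine neurons, was at 19.8, 19.8 and 21.2 CPM in controls and at 13.9, 17.0 and 11.9 CPM in the knockdown, with library 2 again the highest of the 3 (log2 fold change -0.51 ± 0.14, SE; edgeR adjusted p = 0.0256). That call was lost without control library 1, 2 or 3 or knockdown library 1 or 3 and with total-count scaling (-0.34, adjusted p = 0.1101). Chrm1 rose from 1.28 to 2.93 CPM (1.19 ± 0.35, SE; adjusted p = 0.0288), a call lost without control library 1 or 2 or knockdown library 1 or 2.

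The 8 remaining subunit genes of the family, those of muscle, the cochlea and a few brain nuclei, were rare. Chrnb1 was at 4.06 CPM in controls, Chrna1 at 1.33 and Chrna2 at 0.267, and these were the 3 that passed the low-count filter. None was called by edgeR, DESeq2 or limma-voom, and none had an unadjusted edgeR p under 0.05. Chrnd and Chrng had 0 counts in every library, and Chrna9, Chrna10 and Chrne had at most 11 counts in any library.

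The 3 subunit genes of the chromosome 9 cluster had unlike fold changes, whose differences were not tested. In GENCODE, Chrna5 (54980880 to 55007779, plus strand), Chrna3 (55010111 to 55026562, minus strand) and Chrnb4 (55028154 to 55048779, minus strand) lie 2.33 kb and 1.59 kb apart, whereas the RefSeq spans of Chrna5 and Chrna3 overlap. The log2 fold changes of Chrna5, Chrna3 and Chrnb4 were -0.38, -0.08 and 1.46. Of 17 tested protein-coding genes within 500 kb of this cluster, a window set after the values were seen, 3 were lower and none higher, where 12.6% and 8.48% of all genes were: the iron regulator gene Ireb2 (-0.37), Cib2 (-0.93) and Sh2d7 (-0.82). Psma4 and Agphd1, near Chrna5, had log2 fold changes of -0.10 and -0.03. Of 10 tested genes within 500 kb of Chrnb3 and Chrna6, Got1l1 was higher (1.08) and none was lower, against the same shares of all genes. From an earlier list of 12 symbols of neighbouring genes, 9 were in the table, and 3 of these lie within 100 kb of a subunit gene in the mouse. The other 6 lie over 1 Mb away, among them Hook3, which fell by 0.62 on the log2 scale.

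The remaining subunits are single genes. Chrna4 lies on chromosome 2 (181018380 to 181043546), Chrnb2 on chromosome 3 (89746195 to 89764632) and Chrna7 on chromosome 7 (63098692 to 63212569), all on the minus strand. The exons of Chrna4, Chrna6, Chrna7, Chrnb3 and Chrnb4 share no base with another gene in GENCODE.

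The genes whose levels followed Chrna4, the most abundant member, most closely over the 6 libraries were Mark4, Nccrp1, Gorasp1, B9d1 and Pnck. Pearson r of log2 CPM lay between 0.994 and 0.998, and r of the deviations from group means between 0.98 and 0.995, out of 8784 genes with at least 10 CPM compared. These values are a description of 6 libraries. The log2 fold changes of these 5 genes ran from -0.71 (Mark4) to -0.27 (Gorasp1).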

How the data were processed

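Messenger RNA counts of 3 control and 3 Satb1 knockdown libraries were analysed, with groups and replicate numbers taken from the sample titles. Values are raw counts, whole numbers for each gene, in a single table that the authors deposited. The submitters' processing notes name TopHat2 2.0.8 and mm10. The counting tool, its annotation and its use of strand were not given in the sources used here. CPM values are these counts scaled with TMM factors. The main test was edgeR 4.0.16 (quasi-likelihood, R 4.3.3) after filterByExpr at a minimum count of 10, with a threshold of 0.05, 2-sided. Standard errors were derived from the F statistic. Intervals are 95%. Lengths and overlaps came from GENCODE M21, and promoters and gene spans from the RefSeq tables of GRCm38.p6, the assembly of mm10. Alternatives were other scalings, DESeq2 1.42.0, limma-voom 3.58.1, other low-count filters, a replicate block and leaving out each library.

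The members and lists were chosen with earlier results of these data known. Named genes were Satb1, the 8 members, Th, Slc6a3 and Slc18a2, the called members of each list (at most 4, else the 2 with the smallest p) and the 5 genes most like the most abundant member. Other genes were named after their values were seen. Lists covered other subunits, accessory proteins, muscarinic receptors, acetylcholine genes, cluster neighbours and markers of dopamine, habenula, glutamate and serotonin neurons, glia and endothelium. Some marker results are not reported here. Replicate libraries differed by a chi-square per gene between 58.5 and 156, where sampling noise gives about 1, so none was counted together.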

Additional observations from a re-analysis of the deposited data

How the results depend on the processing

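Chrnb4 was called higher under all 15 alternatives, though the other scalings among them move values upward and could not reverse a rise. With total counts in place of TMM the median log2 fold change of all genes went from 0.01 to 0.18, 2769 genes were higher and 972 lower (74.0% of calls higher against 40.2%), and 2 subunits were lower. Chrna3 was then at 0.081, Chrna4 at -0.10 and Chrnb2 at -0.26, 1 accessory gene was higher, 0 muscarinic genes and 1 cluster neighbour were lower. With summed dopamine markers 8634 genes were higher and 116 lower, 4 subunits higher and 0 lower, with Chrna3 at 0.47, Chrna4 at 0.31, Chrna5 at 0.18, Chrnb2 at 0.15, Chrna6 at -0.079 and Chrnb3 at -0.0063. With their geometric mean 4966 were higher and 406 lower and 0 subunits lower, with Chrna3 at 0.25, Chrna4 at 0.077, Chrna6 at -0.31, Chrnb2 at -0.087 and Chrnb3 at -0.23. The call for Chrna4 was also lost with relative log expression (-0.26), no low-count filter (-0.27) and a mean of at least 1 CPM (-0.22). Apart from the scalings, the cause of these losses was not tested.

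Leaving out 1 library at a time gave 804 to 1356 higher and 1132 to 2054 lower genes, 1 to 2 higher and 2 to 4 lower subunits, and log2 fold changes of -0.22 to 0.032 for Chrna3, -0.33 to -0.21 for Chrna4, -0.57 to -0.18 for Chrna5, 0.46 to 0.55 for Chrna7 and -0.47 to -0.35 for Chrnb2. Acetylcholine genes were higher in 1 to 2 and lower in 0 to 1 cases, muscarinic genes 0 to 1 in each direction, accessory genes higher in 0 to 1 and neighbours lower in 1 to 2. The log2 ratio of Chrna5 to Chrna4 differed by -0.33 to 0.042. With the replicate number as a block, Chrna5 was called lower (-0.39, adjusted p = 0.0264) and 5 subunits were lower, with no other change of a subunit call, and 1924 genes were higher and 2789 lower. Same-numbered libraries had correlations of deviations of 0.15, 0.02 and 0.21, and libraries 1 and 3 of each group, but neither library 2, correlated best with their own number. The labels do not say whether a number marks a shared mouse, so the numbers were not used as pairs. The lowest count of any subunit in a library was 317, for Chrnb4.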
